A study of Mus musculus with 6 samples.

Results

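The skeletal muscle genes described here are 40 named genes of the contractile apparatus, calcium handling, energy supply and lineage control of skeletal muscle, measured in RNA from mouse molar pulp. They were chosen by gene symbol, from a list drawn up with the values of these 6 libraries and the genotype contrast already known, so their differences between the genotypes are given as descriptions. Of the 40, 39 were listed among the 27506 genes of the count table, and Mymk, the membrane protein that drives myoblast fusion, was not listed. By role they comprised 9 genes of the thin filament and troponin, 11 of myosin and the thick filament, 3 of the Z-disc, 7 of calcium release and uptake, 4 of energy supply, and 6 myogenic, fusion and synapse genes, of which 5 were listed.

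RNA-seq was performed on dental pulp dissected from the mandibular first molar of C57BL/6 mice at postnatal day 3.5, when root formation begins. There were 3 control libraries with the genotype given as Ror2 fl/fl and 3 mutant libraries with the genotype given as Osr2-Cre;Ror2 fl/fl, so that both groups carried the floxed Ror2 alleles and Cre is named for the mutants only. The sample titles also carry a code, WW for control library 1, OW for control libraries 2 and 3 and OR for the mutants, whose meaning is not given in the sources used here. The mice came from Osr2-Cre;Ror2 fl/+ males crossed with Ror2 fl/fl females. Osr2-Cre acts in the dental mesenchyme and alveolar bone and not in the dental epithelium, so Ror2 remains intact in part of the tooth. The labels do not say whether a library came from 1 animal or from pooled pulps, and the spread given here is that between these samples.

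In skeletal muscle, myosin thick filaments pull on actin thin filaments when calcium binds troponin on the thin filament. A nerve impulse opens a voltage sensor in the surface membrane, the sensor opens a release channel in the sarcoplasmic reticulum, and a pump returns the calcium afterwards. Developing muscle uses embryonic and perinatal myosin heavy chains before the adult fast and slow forms replace them, and the fibres form from myoblasts under the control of the myogenic factors. Molar pulp is a neural crest-derived mesenchyme in which no skeletal muscle fibres form, while muscles of the jaw and tongue lie near the mandible.

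The libraries held between 56134770 and 62628940 estimated counts, and 19330 genes passed the filter on low counts. Ror2 itself was at 38.2, 36.2 and 36.7 TMM-scaled counts per 1000000 (CPM) in the controls and at 27.9, 28.1 and 26.3 CPM in the mutants, a log2 fold change of -0.43 (SE 0.08, edgeR adjusted p = 0.0134). The enamel matrix genes Amelx, Ambn and Enam, which are made chiefly by dental epithelium, took 17.3 to 18.9% of the counts in the controls and 18.6 to 23.7% in the mutants, so by these markers the libraries labelled dental pulp were not of mesenchyme alone. By edgeR's quasi-likelihood test, 20.2% of all genes tested passed an adjusted p of 0.05, 9.84% as lower and 10.4% as higher in the mutants.

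The promoters of 6 of the genes are shown because the first 3, Acta1, Ckm and Myh8, belong to genes that were lower in the mutants, the next pair, Tpm2 and Myh4, to the abundant genes that did not pass the test, and the last, Myog, to the factor that switches on muscle differentiation. Ckm and Myh8 were added to this set after their values were seen. Each is the sense strand from 250 bases before to 50 bases after the RefSeq start, on GRCm38.p6. Capitals mark E-boxes (CANNTG, read on both strands), MEF2 sites (YTAWWWWTAR) and CArG boxes. Here Y is C or T, W is A or T, and R is A or G. Stretches that depart from the MEF2 pattern were not marked or counted, such as ctatatttat in Myog, which departs in its last base.
Acta1 (chr8:123894726-123895025, minus strand): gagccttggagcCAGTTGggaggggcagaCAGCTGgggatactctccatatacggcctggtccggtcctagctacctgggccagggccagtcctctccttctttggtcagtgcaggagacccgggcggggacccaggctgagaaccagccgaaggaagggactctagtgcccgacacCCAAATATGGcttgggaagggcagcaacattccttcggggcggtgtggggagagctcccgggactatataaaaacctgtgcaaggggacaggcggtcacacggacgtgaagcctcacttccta
Ckm (chr7:19410844-19411143, plus strand): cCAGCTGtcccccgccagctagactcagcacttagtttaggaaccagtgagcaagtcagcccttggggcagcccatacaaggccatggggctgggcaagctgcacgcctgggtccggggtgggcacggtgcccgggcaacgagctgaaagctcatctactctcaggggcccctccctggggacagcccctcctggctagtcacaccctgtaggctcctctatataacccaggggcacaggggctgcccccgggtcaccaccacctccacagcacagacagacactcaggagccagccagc
Myh8 (chr11:67276874-67277173, plus strand): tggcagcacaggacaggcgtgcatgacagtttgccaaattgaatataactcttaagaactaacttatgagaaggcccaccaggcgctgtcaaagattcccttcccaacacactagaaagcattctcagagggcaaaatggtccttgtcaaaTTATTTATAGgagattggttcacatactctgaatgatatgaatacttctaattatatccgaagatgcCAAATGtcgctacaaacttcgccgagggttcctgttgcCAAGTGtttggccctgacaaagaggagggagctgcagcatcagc
Tpm2 (chr4:43523505-43523804, minus strand): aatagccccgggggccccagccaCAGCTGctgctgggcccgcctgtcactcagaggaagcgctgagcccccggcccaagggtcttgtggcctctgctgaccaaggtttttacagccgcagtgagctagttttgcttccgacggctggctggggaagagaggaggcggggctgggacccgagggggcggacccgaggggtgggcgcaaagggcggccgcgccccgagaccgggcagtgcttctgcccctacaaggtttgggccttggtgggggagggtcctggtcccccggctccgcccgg
Myh4 (chr11:67237562-67237861, plus strand): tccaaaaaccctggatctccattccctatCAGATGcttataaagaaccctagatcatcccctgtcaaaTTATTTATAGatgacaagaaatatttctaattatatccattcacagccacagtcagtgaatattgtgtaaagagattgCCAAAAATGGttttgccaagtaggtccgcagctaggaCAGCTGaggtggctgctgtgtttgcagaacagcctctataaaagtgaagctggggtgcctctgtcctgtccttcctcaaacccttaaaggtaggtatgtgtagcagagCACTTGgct
Myog (chr1:134289754-134290053, plus strand): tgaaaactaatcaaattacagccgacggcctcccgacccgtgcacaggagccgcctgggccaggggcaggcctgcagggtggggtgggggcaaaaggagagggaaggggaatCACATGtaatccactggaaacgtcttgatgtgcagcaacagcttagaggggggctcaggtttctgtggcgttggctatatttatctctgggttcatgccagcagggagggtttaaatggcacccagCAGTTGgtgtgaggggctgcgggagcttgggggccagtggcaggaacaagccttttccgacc

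The E-box CANNTG is the site of the myogenic factors, MEF2 sites bind the MEF2 factors, and the CArG box binds serum response factor. RefSeq promoters were found for 32 of the 40 genes and for 27025 symbols in all. An E-box was present in 26 of the 32, against 72.1% of all promoters of this length. Its palindromic form CAGCTG, counted within the E-boxes, was present in 14 of the 32, against 16.1% of all, and the form CACCTG, read on both strands, in 8 of 32, against 20.0%. MEF2 sites were found in 6 of the 32, against 3.26% of all promoters, and CArG boxes in 3, namely Acta1, Ldb3 and Myh4, against 1.57%. The letters TATAAA, read on the sense strand only, occurred in 7 of the 32, against 8.88% of all. Matches were present on either side of the test: Myh4, which did not pass it, held an E-box, a MEF2 site and a CArG box, while Ckm held a single CAGCTG and Ryr1, which also passed, held none of these motifs in this window.

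As a set, the muscle genes were low in every library and lower in the mutants. The summed level of the 39 listed genes was 107, 128 and 91.3 CPM in control libraries 1, 2 and 3 and 60.9, 77.7 and 66.8 CPM in mutant libraries 1, 2 and 3. Every control library lay above every mutant library, and the control mean was 1.59 times the mutant mean, or 1.45 times without control library 2. Tpm2, Myh4 and Eno3 gave 63.7, 60.8 and 64.3 CPM of this sum in the controls and 49.1, 61.5 and 52.8 CPM in the mutants. Without them, a choice made after their values were seen, the other 36 genes summed to 43.1, 67.4 and 27.0 CPM in the controls and 11.8, 16.2 and 14.1 CPM in the mutants, a ratio of 3.27, or 2.50 without control library 2. In bulk RNA, fewer muscle cells and less muscle RNA per cell cannot be told apart.

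Of the 39 listed genes, 25 had a mean level under 1 CPM, and the median of their mean levels was 0.636 CPM, against 9.86 CPM for all genes tested. The filter on low counts was passed by 28, of which 18 reached the minimum in all 6 libraries, 9 passed through their 3 control libraries with fewer than 3 mutant libraries at the minimum, and 1, Mybpc2, passed through libraries of both groups. Of the 28, 12 were called lower in the mutants, where the background was 9.84%, and 1 was called higher, where it was 10.4%. The 12 were Acta1, Tnnt3, Tnni2, Tnnc2, Myh3, Myh8, Myl1, Mylpf, Mybpc1, Ttn, Ryr1 and Ckm. Of them 6, namely Tnnc2, Myh3, Myh8, Myl1, Mybpc1 and Ckm, had passed the filter through the controls, so that the filter favoured this direction. The 1 called higher was Cacna1s. Another 15 were not called, 13 of them with a log2 fold change below 0. The median log2 fold change of the 28 was -1.26, beside 0.01 for all genes tested, whose 5th to 95th percentiles ran from -0.93 to 1.23. These counts and this median describe a list chosen on the same contrast. Without control library 2 the number called fell to 5 lower and none higher, and without mutant library 1 to 8 lower and none higher. Calls over all genes also fell in both of these fits, as given in the closing section.

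**Figure D1:**
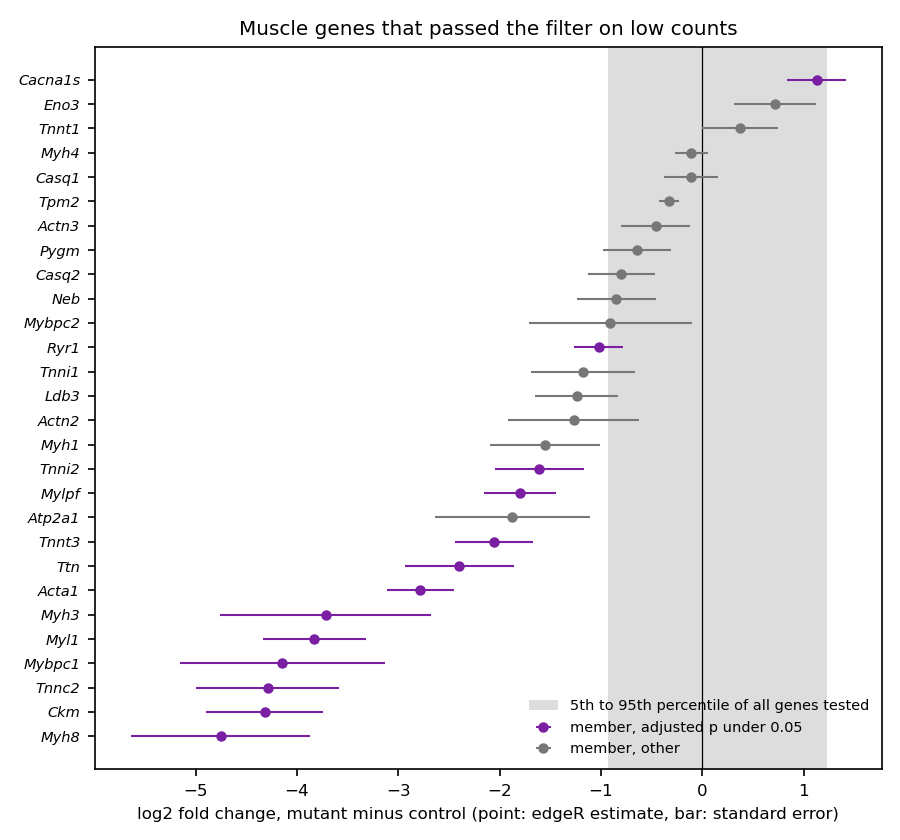
Log2 fold change of mutant over control (x axis) for the 28 muscle genes that passed the filter on low counts, one gene per line, with the edgeR estimate as a point and its standard error as a bar. Purple points passed an adjusted p of 0.05 over all genes and the grey band spans the 5th to 95th percentiles of all genes tested, from -0.93 to 1.23. Cacna1s lies at the top at 1.13 and Myh8 at the bottom at -4.75.

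Control library 2 was the highest of the 6 libraries for 24 of the 39 genes, where it was so for 17.6% of all genes with a count. Control library 1 was the highest for 6, control library 3 for 4 and a mutant library for 5. All 3 mutant libraries lay below all 3 controls for 20 of the 39 genes, where 17.2% of all genes with a count did so, and for 17 of the 28 tested, where 22.1% of all genes tested did so. They lay above all controls for 1 gene, Cacna1s, where 19.6% of all genes with a count and 22.6% of those tested did so, and the groups overlapped for 18.

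**Figure D2:**
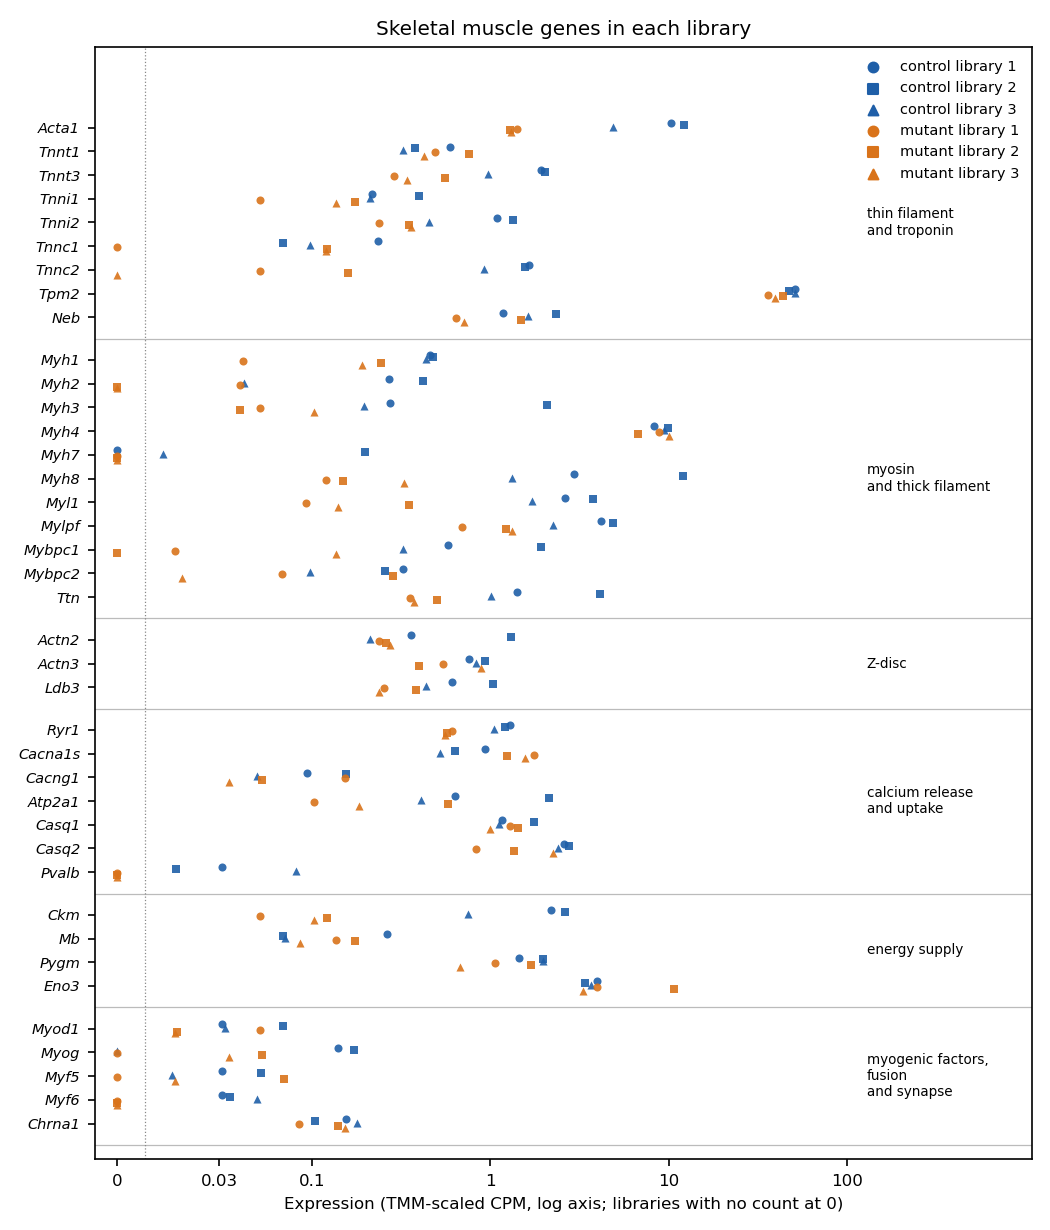
Level of each of the 39 muscle genes (TMM-scaled CPM, log axis, with libraries at 0 set left of the dotted line) in the 3 control libraries (blue) and the 3 mutant libraries (orange), grouped by role. Mutant points lie left of all control points for 20 genes, and Tpm2, the most abundant, lies between 36.3 and 51.5 CPM.

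Among the thin filament and troponin genes, 4 of 8 tested fell in the mutants, none rose, and 4 did not pass the test. Over all genes tested, 9.84% were called lower and 10.4% higher. Of the 4, Tnnc2 had passed the filter through the controls, so that the filter favoured this direction for it. Acta1, the actin of skeletal muscle thin filaments, had 667, 713 and 302 counts in control libraries 1 to 3 and 83.1, 74.1 and 77.1 in mutant libraries 1 to 3. The mutant libraries lay close together and below the lowest control. Its mean fell from 9.16 ± 3.81 CPM (SD, n = 3) to 1.33 ± 0.06 CPM (n = 3), a log2 fold change of -2.78 (SE 0.33).

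The fast troponin genes fell together. Tnnt3, the fast subunit that ties troponin to tropomyosin, had 124, 118 and 60 counts in the controls and 17, 32 and 20 in the mutants, and changed by -2.05 on the log2 scale (SE 0.39). Tnni2, the fast inhibitory subunit, had 70, 78 and 28 counts in the controls against 14, 20 and 21, a log2 fold change of -1.61 (SE 0.44). Tnnc2, the fast calcium-binding subunit, had 106, 90.8 and 56.7 counts in the controls and 3, 9.2 and 0 in the mutants, a log2 fold change of -4.29 (SE 0.70). In all 3 genes every mutant library lay below every control, as for 22.1% of all genes tested. For Tnni2 the gap between control library 3 and the highest mutant was narrow. Tnnt3 lost its call without control library 2, and Tnni2 lost it without any 1 library other than control library 3. Of the 75-base stretches of Tnnc2, 35.0% also lay in the transcripts of Ube2c, which overlaps it on the opposite strand, and whether the counting used strand is not given in the sources used here. Ube2c was at 6.31 to 8.82 CPM in the controls and 4.97 to 6.09 CPM in the mutants (edgeR adjusted p = 0.115), and its part in the Tnnc2 counts was not tested.

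None of the slow troponin genes was called. Tnnt1, the slow tropomyosin-binding subunit, had 38, 22 and 20 counts in the controls and 29, 44 and 25 in the mutants, with overlapping groups and a log2 fold change of 0.37 (SE 0.37). Tnni1, the slow inhibitory subunit, had 14, 23 and 13 against 3, 10 and 8 counts, and Tnnc1, the slow and cardiac calcium-binding subunit, did not pass the filter, with 4 to 15 counts in the controls and 0 to 7 in the mutants. Tnni1 did not overlap but did not pass the test, at -1.18 (SE 0.52). Whether the fast and slow forms differed in their response was not tested.

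Tpm2 encodes beta-tropomyosin, which smooth muscle and other cells also make. It was the most abundant of the 39 genes, with 3316, 2762 and 3162 counts in the controls and 2146, 2537 and 2326 in the mutants. The groups did not overlap, with means of 50.03 ± 2.29 CPM and 39.9 ± 3.86 CPM (SD, n = 3 each). The gene narrowly did not pass the test, at -0.33 (SE 0.10, edgeR adjusted p = 0.0524), and passed in 3 of 15 alternatives. Neb, the giant nebulin that lies along the thin filament, had 76, 136 and 100 counts in the controls and 38, 86 and 42 in the mutants. Mutant library 2 lay above control library 1, and Neb did not pass, at -0.85 (SE 0.39).

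**Figure D3:**
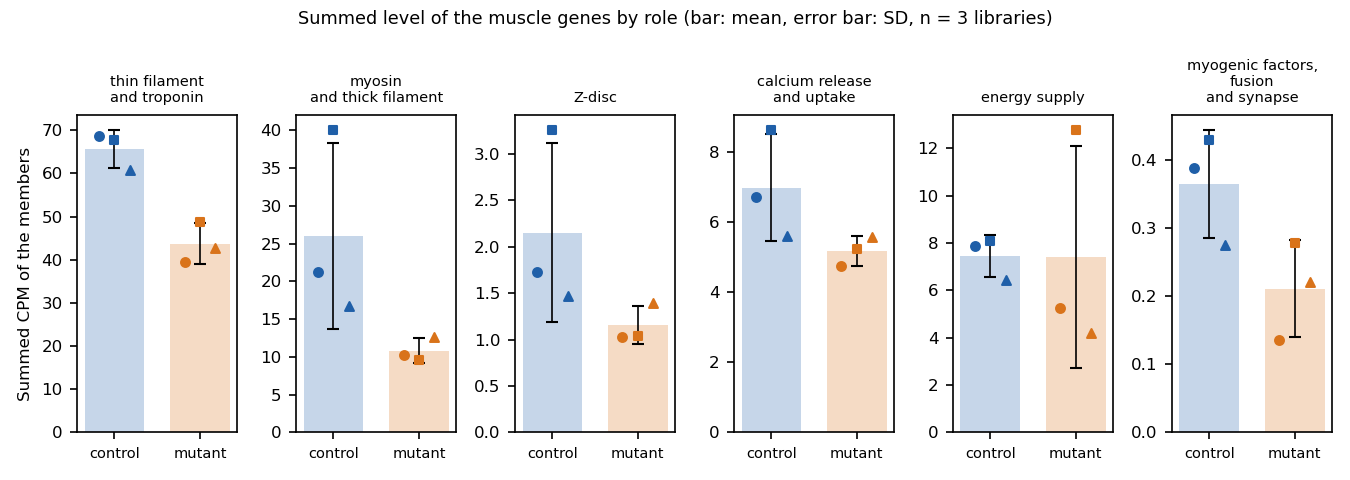
Summed level of the muscle genes of each role (TMM-scaled CPM, each panel with its own axis from 0) in the control (blue) and mutant (orange) libraries, with bars at the mean, error bars of 1 SD over 3 libraries, and points for libraries 1 (circle), 2 (square) and 3 (triangle). Control library 2 reaches 40.1 CPM for myosin and thick filament genes against 21.3 and 16.8 CPM in the other controls, and mutant library 2 reaches 12.8 CPM for energy supply genes.

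The myosin and thick filament genes had the lowest median log2 fold change of the roles with genes tested, at -2.40. Of 9 tested, 6 fell in the mutants, none rose and 3 did not pass. Of the 6, Myh3, Myh8, Myl1 and Mybpc1 had passed the filter through the controls, so that the filter favoured this direction. The shares called over all genes tested were 9.84% lower and 10.4% higher. Myh8, the perinatal heavy chain, had 190, 700 and 81.9 counts in the controls and 7.1, 8.6 and 19.2 in the mutants. Its mean fell from 5.43 ± 5.75 CPM to 0.198 ± 0.111 CPM (SD, n = 3 each), a log2 fold change of -4.75 (SE 0.89), and 72.0% of its control counts came from control library 2. Myh3, the embryonic heavy chain, had 17.6, 121 and 12 counts in the controls and 3, 2.3 and 6 in the mutants, a log2 fold change of -3.71 (SE 1.04). For Myh3 80.4% of the control counts came from control library 2, and without that library, or without any 1 of the mutant libraries, the gene no longer passed the test.

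The light chains fell as well, and more evenly among the controls. Mylpf, the fast regulatory light chain, had 270, 285 and 138 counts in the controls and 41, 71 and 78 in the mutants, a log2 fold change of -1.80 (SE 0.35) that did not pass without control library 2. Myl1, the fast essential light chain, had 169, 219 and 106 counts in the controls and 5.4, 20 and 8.2 in the mutants, a log2 fold change of -3.83 (SE 0.51). Every mutant library held fewer Myl1 counts than the lowest control by a wide margin, and the call was kept without any 1 library.

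For Mybpc1 and Ttn, other parts of the thick filament, control library 2 was the highest library. Mybpc1, the slow myosin-binding protein C, had 37, 112 and 20 counts in the controls and 1, 0 and 8 in the mutants, a log2 fold change of -4.14 (SE 1.01). Ttn, the giant titin that spans from Z-disc to the middle of the sarcomere, had 91, 239 and 62 counts in the controls and 21, 29 and 22 in the mutants, a log2 fold change of -2.40 (SE 0.54). In both genes every mutant library lay below every control, as for 22.1% of all genes tested. Neither gene passed the test without control library 2. Mybpc1 also lost its call without control library 1, mutant library 1 or mutant library 2, and Ttn without mutant library 1. Mybpc2, the fast myosin-binding protein C, ranged from 6 to 20.8 counts in the controls and from 1.1 to 16.4 in the mutants, and did not pass.

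Myh4, the heavy chain of the fastest adult fibres, did not follow the other myosins. It had 531, 581 and 581 counts in the controls and 522, 389 and 593 in the mutants, with means of 9.21 ± 0.88 CPM and 8.54 ± 1.67 CPM (SD, n = 3 each) and a log2 fold change of -0.11 (SE 0.17). The groups overlapped, and mutant library 3 was the highest of the 6.

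The remaining heavy chains were scarce. Myh1, an adult fast form, ranged from 26.7 to 29.5 counts in the controls and from 2.4 to 14 in the mutants, without overlap, and did not pass the test, at -1.55 (SE 0.54). Myh2, another adult fast form, had 17.3, 24.3 and 2.6 counts in the controls and 2.3, 0 and 0 in the mutants. Myh7, the slow heavy chain, had 0, 11.5 and 0.9 counts in the controls and 0 in each mutant library. Neither Myh2 nor Myh7 passed the filter, and a count of 0 allowed up to 3 counts, or 0.0507 to 0.0520 CPM in a mutant library, by counting error only.

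The heavy chains Myh3, Myh2, Myh1, Myh4 and Myh8, lie in this order on the plus strand of one cluster, chr11:67078300-67308634 (mm10, from the start of Myh3 to the end of Myh8), so neighbours in one cluster differed in their values. Their transcripts also share sequence: 20.9% of the 75-base stretches of Myh1, 15.5% of Myh2, 13.6% of Myh7, 9.68% of Myh4, 7.05% of Myh8 and 1.84% of Myh3 also lay in other genes, and the estimated counts divide such reads by model. Of the summed level per kilobase of exon of the 6 heavy chains, Myh4 took 77.1, 52.2 and 87.7% in the controls and 98.0, 95.1 and 95.7% in the mutants. Myh8 took 14.1, 32.1 and 6.31% in the controls and 0.678, 1.08 and 1.58% in the mutants. By this measure Myh4 led in every library, and the perinatal and embryonic forms came next in control library 2. The exon length used for Myh8 was 11772 bases, against 6149 for its longest transcript, while both were 6016 for Myh4. In control library 2 Myh8 held more counts than Myh4, 700 against 581, so the lead of Myh4 there rested on the exon length used.

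**Figure D4:**
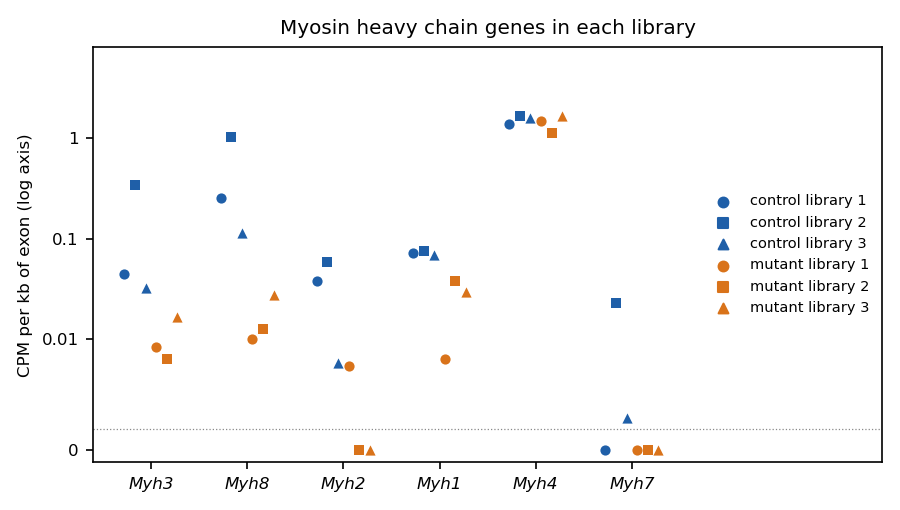
Level of the 6 myosin heavy chain genes per kilobase of exon (CPM per kb, log axis, with libraries at 0 set below the dotted line) in each control (blue) and mutant (orange) library. Myh4 lies above 1 CPM per kb in all 6 libraries, while Myh3 and Myh8 are separated by genotype with control library 2 highest.

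None of the 3 Z-disc genes passed the test by edgeR, DESeq2 or limma, with 1 at an unadjusted p under 0.05 by edgeR. Actn2, the alpha-actinin that anchors thin filaments at the Z-disc, had 23, 76 and 13 counts in the controls and 14, 15 and 16 in the mutants, a log2 fold change of -1.27 (SE 0.65). Only control libraries 1 and 2 stood above the mutants, and 67.9% of the control counts came from control library 2. Actn3, the alpha-actinin of fast fibres, had 49, 54 and 51 counts in the controls and 32, 23 and 52 in the mutants, at -0.46 (SE 0.34). Ldb3, a scaffold that binds alpha-actinin, had 39, 60 and 27 counts in the controls and 15, 22 and 14 in the mutants, at -1.24 (SE 0.41). The Ldb3 groups did not overlap, while those of Actn2 and Actn3 did.

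Of the 5 calcium genes tested, 1 fell, 1 rose and 3 did not pass, beside backgrounds of 9.84% lower and 10.4% higher. Ryr1, the calcium release channel of the sarcoplasmic reticulum, had 83, 70 and 65 counts in the controls and 36, 33 and 32.6 in the mutants. Its mean fell from 1.18 ± 0.12 CPM to 0.578 ± 0.029 CPM (SD, n = 3 each), a log2 fold change of -1.02 (SE 0.24). The spread within each group was small, though the call was lost without any 1 of the control libraries.

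Cacna1s, the voltage sensor that opens Ryr1, went the other way. It had 59.7, 37 and 32 counts in the controls and 104, 71.5 and 92.4 in the mutants, and every mutant library lay above every control. Its mean rose from 0.693 ± 0.211 CPM to 1.52 ± 0.26 CPM (SD, n = 3 each), a log2 fold change of 1.13 (SE 0.29), and the call was lost without control library 2, control library 3 or mutant library 1. Of its 75-base stretches, 14.3% also lay in the antisense gene Gm37759, which was at 0.020, 0 and 0 CPM in the controls and 0.0863, 0.147 and 0.0779 CPM in the mutants, and the part of these reads in the Cacna1s counts was not tested.

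The calcium store proteins were among the more abundant muscle genes and did not pass the test. Casq1, the calcium-binding protein of the fast fibre's store, had 74.7, 102 and 69 counts in the controls and 76.3, 82.7 and 58.7 in the mutants, at -0.11 (SE 0.27) with overlapping groups. Casq2, its slow and cardiac counterpart, had 167, 160 and 147 counts in the controls and 49, 78 and 133 in the mutants, at -0.80 (SE 0.33). The Casq2 groups did not overlap, but mutant library 3 lay close to the controls and the gene did not pass the test. Atp2a1, the fast calcium pump, ranged from 25 to 124 counts in the controls and from 6 to 33.2 in the mutants and did not pass, at -1.87 (SE 0.77), and 15.8% of its stretches also lay in Rabep2 on the opposite strand. Cacng1, a subunit of the voltage sensor, and Pvalb, a calcium buffer of fast fibres, had at most 9 counts in any library and were not tested.

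Among the energy supply genes 1 of 3 tested fell, beside 9.84% lower over all genes tested, and the other 2 did not pass. The gene that fell had passed the filter through the controls, so that the filter favoured this direction. Ckm, the creatine kinase of muscle, had 142, 153 and 46 counts in the controls and 3, 7 and 6 in the mutants. Its mean fell from 1.86 ± 0.99 CPM to 0.0912 ± 0.0364 CPM (SD, n = 3 each), a log2 fold change of -4.32 (SE 0.58), and the lowest control lay well above the highest mutant. Pygm, the glycogen phosphorylase of muscle, had 93, 115 and 122 counts in the controls and 63, 98 and 40 in the mutants, at -0.65 (SE 0.34) with overlapping groups.

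Eno3, the muscle form of the glycolytic enzyme enolase, was led by a single mutant library. It had 254, 199 and 226 counts in the controls and 236, 622 and 196 in the mutants, at 0.71 (SE 0.41), and did not pass the test. Without mutant library 2, the other mutant libraries lay at 3.99 and 3.32 CPM, just above and just below the control range of 3.41 to 3.94 CPM. Mb, the oxygen-binding myoglobin, ranged from 4 to 17 counts in the controls and from 5 to 10 in the mutants and was not tested.

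The genes that mark muscle precursors and the synapse were at the edge of detection, and none passed the filter. Myod1, which commits cells to the muscle lineage, had 2, 4 and 2 counts in the controls and 3, 1 and 1 in the mutants. Myf5, which acts alongside it, had 2, 3 and 1 against 0, 4 and 1. Myog, whose promoter is shown above with its E-boxes in capitals, had 9, 10 and 0 counts in the controls and 0, 3 and 2 in the mutants. These values overlapped between the groups, and these genes were too scarce to be tested. Myf6, the factor of maturing fibres, had 2, 2 and 3 counts in the controls and 0 in each mutant library, where a count of 0 allowed up to 3 counts. Chrna1, a subunit of the acetylcholine receptor at the nerve-muscle synapse, had 10, 6 and 11 counts in the controls and 5, 8 and 9 in the mutants.

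Per kilobase of exon, Tpm2 led in the controls at 17.2 CPM per kb, followed by Acta1 at 5.96, Mylpf at 3.55, Eno3 at 2.11, Tnnc2 at 1.72 and Myh4 at 1.53. In the mutants Tpm2 led at 13.7 CPM per kb, followed by Eno3 at 3.47, Myh4 at 1.42, Mylpf at 1.02 and Acta1 at 0.868. By these means Acta1 stood next to Tpm2 in the controls and behind Mylpf in the mutants. The ranges of Acta1 and Mylpf overlapped in both groups, with Acta1 above Mylpf in each control library and in mutant library 1. Eno3, Tnnc2 and Myh4 were not all apart in this order, since the control libraries of Tnnc2 overlapped those of both.

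The excess in control library 2 was uneven over the genes. Myh3 was 7.61 times, Myh8 4.06 times, Actn2 3.65 times, Atp2a1 3.38 times, Mybpc1 3.34 times and Ttn 2.90 times as high in control library 2 as in control library 1, while Acta1 was 1.18 times, Ckm 1.19 times and Tnnc2 0.946 times as high. Members were grouped by their longest annotated transcript. The median ratio of control library 2 to control library 1 was 1.16 for the 9 members under 2 kb, 1.28 for the 10 of 2 to 4 kb and 1.65 for the 9 of 4 kb or more. Over all genes tested the same medians were 0.916, 0.990 and 1.08, so the ratio also rose with length over all genes. Against control library 3 the members' medians were 2.03, 1.89 and 1.43 in the same order of length, beside 0.985, 0.995 and 1.01 over all genes, and here the longest members had the lowest ratio. These bins hold few members and carry no test.

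**Figure D5:**
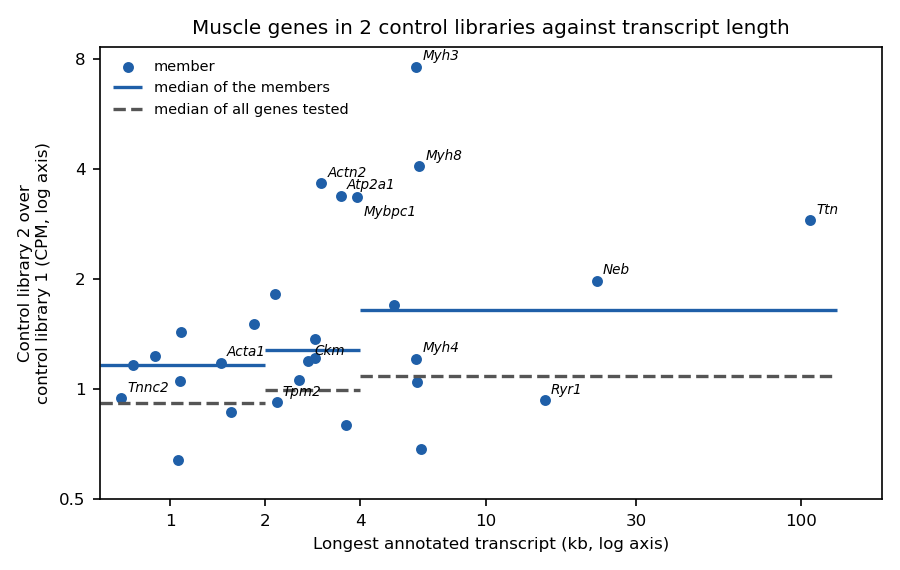
Ratio of control library 2 to control library 1 (CPM, log axis) for the 28 tested muscle genes against the length of the longest annotated transcript (kb, log axis). Blue lines are the members' medians within 3 length classes and dashed lines those of all genes tested, and Myh3 at 7.61 and Myh8 at 4.06 stand highest.

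A further 95 muscle genes that are not among the 40 were listed by known role. Of these, 91 were in the table and 56 passed the filter, 7 of them through the controls. By edgeR's test 7 were lower in the mutants, beside a background of 9.84%, and 2 were higher, beside 10.4%. Of the 7 lower, 5 had passed the filter through the controls, with fewer than 3 mutant libraries at the minimum, so that the filter favoured this direction, and Srl and Mef2c reached the minimum in all libraries. Together these calls were 16.1% of the 56, where all genes gave 20.2% and the 28 members 46.4%, and the median log2 fold change of the 56 was -0.13.

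The sarcomere list held 4 of the 7 lower calls. Myoz1, a Z-disc protein of fast fibres, was at 0.528, 0.566 and 0.372 CPM in the controls and 0.152, 0.139 and 0.186 CPM in the mutants, a log2 fold change of -1.61 (SE 0.35, edgeR adjusted p = 0.0192). Klhl41, which stabilizes nebulin, fell by 1.58 on the log2 scale (SE 0.41, edgeR adjusted p = 0.0317). Both lost the call without any 1 control library or mutant library 1, and Klhl41 also without mutant library 3. In all, 4 of the 15 sarcomere genes tested were lower and none higher, beside backgrounds of 9.84% lower and 10.4% higher. The 3 most abundant of it, Pdlim3 at 0.44 (SE 0.16), Cmya5 at -0.09 (SE 0.22) and Myom1 at 0.31 (SE 0.23), did not pass.

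Of the energy supply list 1 of 9 tested was lower and 1 higher, and of the membrane and calcium list 1 of 13 was lower and 1 higher, beside backgrounds of 9.84% lower and 10.4% higher. Cox6a2, the muscle form of a cytochrome c oxidase subunit, was at 0.227 to 0.264 CPM in the controls and 0.0338 to 0.0520 CPM in the mutants, a log2 fold change of -2.58 (SE 0.44, edgeR adjusted p = 0.0085). Slc2a4, the insulin-responsive glucose transporter, rose by 0.64 (SE 0.19, edgeR adjusted p = 0.0454), a call lost in 10 of 15 alternatives, among them library size alone and no filter on low counts, with adjusted p from 0.0214 to 0.175 over them. The abundant Pfkm, Gys1 and Phka1 did not pass. Srl, a calcium-binding protein of the sarcoplasmic reticulum, fell by 0.88 (SE 0.17, edgeR adjusted p = 0.0125), while Cacnb1, the intracellular beta subunit that partners Cacna1s, rose by 0.63 (SE 0.14, edgeR adjusted p = 0.0201). Dmd and Stac3, the most abundant of that list, did not pass. On leaving out 1 library, Cox6a2 and Srl lost the call only without control library 2, Cacnb1 without control library 2 or 3, and Slc2a4 without any 1 control library, mutant library 1 or mutant library 2.

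Of the precursor and lineage list, 1 of 13 tested passed, as lower, beside a background of 9.84% lower and 10.4% higher. This gene was Mef2c, a transcription factor of muscle and of several other tissues. Mef2c was at 25.1, 41.6 and 37.7 CPM in the controls and 21.9, 17.4 and 22.5 CPM in the mutants. Its log2 fold change was -0.75 (SE 0.19, edgeR adjusted p = 0.0305). The Mef2c call was lost without control library 2, control library 3, mutant library 1 or mutant library 2. Mef2a, Mef2d and Heyl did not pass. None of the 6 tested genes of the synapse list passed by edgeR, with 1 at an unadjusted p under 0.05 and 1 passing by limma voom, the nearest being Rapsn, which clusters acetylcholine receptors, at 1.03 (SE 0.33, edgeR adjusted p = 0.0611), and Colq, Chrnb1 and Lrp4 did not pass either. Without control library 2 none of the 56 passed by edgeR, with 10 at an unadjusted p under 0.05. The number called over all genes was lower in that fit too, as given in the closing section.

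Markers of other tissues that could lie beside or within the pulp also varied between the libraries, and no listed gene of these lists was at 0 in every library. The 7 tendon and ligament genes summed to 561 to 914 CPM in the controls and 315 to 416 CPM in the mutants. Of this list 2 of 6 tested were lower and none higher, and the median log2 fold change was only -0.09. The 7 blood genes summed to 784 to 1331 CPM in the controls and 245 to 942 CPM in the mutants, with 2 of 7 lower and none higher, and control library 1, not 2, was the highest. The median log2 fold change of the blood genes was -0.78. Of the Schwann cell and nerve genes 2 of 7 tested were higher, and of the odontoblast and pulp genes 1 of 9 was higher. Of the bone genes 1 of 8 was lower, and of the leukocyte genes 1 of 6 was lower. None of the 6 endothelium genes was called by edgeR or was at an unadjusted p under 0.05. For all of these lists the background was 9.84% lower and 10.4% higher. Smooth muscle and pericyte genes summed to 450 to 545 CPM in the controls and 401 to 470 CPM in the mutants with none of 12 called by edgeR, 2 at an unadjusted p under 0.05 and 2 called by DESeq2. Heart genes summed to 1.52 to 2.22 CPM against 1.69 to 3.28 CPM with none of 3 called by edgeR, none at an unadjusted p under 0.05 and none called by DESeq2. The dental and oral epithelium genes summed to 171521 to 191808 CPM in the controls and 185111 to 255393 CPM in the mutants. None of the 10 was called by edgeR, with 5 at an unadjusted p under 0.05. The part of these tissues in the muscle result was not tested, and the source of the muscle RNA, whether muscle beside the tooth or cells of the pulp, was not tested.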

How the data were processed

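The 6 libraries were RNA-seq of molar pulp at postnatal day 3.5. Per the labels and the study's methods, the authors aligned reads of 75 bases to mm10. STAR 2.6.1d and Partek are named in the submitters' processing notes, and the methods name another aligner. The deposited table used here holds estimated counts for 27506 genes, of which 48.7% of values were whole (tolerance 1e-09). A deposited normalized table of 22061 genes holds a signal, (estimated count + 1) times a factor per library within 0.000822%, not divided by length. It entered 2 alternatives only. The 6 other sample columns were not used.

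Estimated counts were rounded and tested with edgeR 4.0.16 (quasi-likelihood, TMM, filterByExpr with a minimum count of 10, Benjamini-Hochberg adjustment over 19330 genes, threshold 0.05). Levels are estimated counts per 1000000 of TMM-scaled library size. Values under 0.05 estimated counts were set to 0. DESeq2 1.42.0 and limma 3.58.1 were alternatives, as were other scalings, filters, a replicate block and leaving out each library. Same-numbered libraries did not vary together. Replicates of 1 group differed beyond sampling noise (chi-square per gene 56.2 to 244). The script was tested on simulated data. Lengths and shared stretches came from GENCODE M21, whose coordinates matched 27484 genes, and promoters from RefSeq (GRCm38.p6).

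The members and gene lists were chosen with earlier results of these data known. Named with each library's value were the 3 most abundant members of each role, every member passing the test and the 6 myogenic and synapse genes. Of the other muscle lists, the 3 most abundant and the 2 with the smallest p were named. Counts of the remaining members were added after their values were seen.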

Additional observations from a re-analysis of the deposited data

How the results depend on the processing

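The 12 members called lower kept their direction under every alternative that tested them, and Acta1, Myl1 and Tnnc2 also stayed past the threshold in all of them. Without control library 2, 5 of the 12 stayed past it, namely Acta1, Ckm, Myh8, Myl1 and Tnnc2. Of these, Acta1 reached the minimum of the filter in all libraries. Ckm, Myh8, Myl1 and Tnnc2 had passed the filter through the controls, so that the filter favoured this direction. Among 407 values of single members under the alternatives, 349 kept their direction and their side of the threshold, 41 lost the call, 14 gained it and 3 reversed. The reversals were of members near 0: leaving out 1 library at a time, Myh4 ranged from -0.25 to 0.046, above 0 without mutant library 2, and Casq1 from -0.24 to 0.11, above 0 without control library 2 and, at 0.02, without mutant library 3.

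Leaving out 1 library gave between 5 and 14 members called (13 with all libraries), between 0 and 12 other muscle genes (9 with all) and between 872 and 5001 of all genes (3906 with all). The lowest counts for members came without control library 2 (5) and without mutant library 1 (8), those for the other muscle genes without control library 2 (0) and without control library 3 or mutant library 1 (4 each), and those for all genes without control library 3 (872), control library 2 (910) and mutant library 1 (2404). A filter of 1 CPM in 3 libraries left 15 members, of which 8 were called, and 4 of the other muscle genes were called. With limma voom and quality weights 6341 of all genes and 14 of the other muscle genes were called. DESeq2 called 16 members (15 lower). The shares over all genes under DESeq2 and under the 1 CPM filter are not given here, so those counts have no background beside them. With a replicate block, 9 members, 2 other muscle genes and 2013 of all genes were called, while same-numbered libraries had correlations of -0.10, -0.08 and -0.004, so the numbers did not pair them. The cause of these shifts was not tested, except that the stricter filter tests fewer genes and leaving out a library uses fewer samples.

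Most members lie under 1 CPM, so that counting error limits single values, and genes with shared stretches depend on how the authors' software divided the reads.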
